A study of Mus musculus with 9 samples.

Results

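The genes described here are 32 markers of blood and lymphatic endothelium, the cells that line vessels, measured in mouse quadriceps femoris, a thigh muscle. They were listed by name, and each was read from the Affymetrix probe set that names it and has the highest mean over the 9 arrays. The table held probe sets for all 32. Of these genes 30 reached a log2 value above 5 in at least 3 arrays and were tested, among 9697 genes in all. The remaining pair, Tal1 and Prox1, stayed below that level and are given by their values only.

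The study used female mice of 1 strain label, C57Bl/6 HT transgenic, in which a self MHC class I protein is expressed in skeletal muscle once doxycycline is withdrawn. Early mice (n = 3) came off doxycycline at 21 days of age, and muscle was taken at 35 days. For late mice (n = 3) the drug was stopped at 35 days and muscle was taken at 50 days, as labelled. The 3 control animals stayed on doxycycline until muscle was taken at 35 days. The treatment protocol calls the controls single transgenic littermates, while the strain label is the same in every group, so their genotype is not settled by the labels. Early and control mice matched in age and differed in doxycycline. Late mice were also older than both other groups, so age and induction cannot be told apart in any comparison with them. The labels do not say which promoter drives the transgene or whether replicates are litter mates, and p values measure only the spread between these samples.

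Values are GCRMA log2 expression, so 1 unit is a doubling. H2-K1, which encodes a class I heavy chain, had mean log2 levels of 14.66 in early, 13.87 in late and 10.52 in control muscle. All group means of the 6 muscle fibre markers (Ckm, Acta1, Myh1, Myh4, Tnnt3 and Atp2a1) lay above 15 on the log2 scale. These markers bore out skeletal muscle, but not which muscle it was. Array medians lay between 3.41 and 3.45. The 3 arrays farthest from the others of their group were early 1, early 3 and late 1, where 7.59%, 10.3% and 7.83% of genes stood more than 1 log2 unit from the mean of their group mates, against 0.557% to 2.89% in the other 6 arrays.

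Endothelial cells grow and survive under VEGF ligands, which bind the tyrosine kinase receptors encoded by Flt1, Kdr and Flt4. The angiopoietin encoded by Angpt1, made largely by mural cells and other cells around the vessel, acts through Tek and keeps vessels quiet and tight. Junction proteins seal the cells to one another, and factors of the ETS and SOX families keep the endothelial program running. In skeletal muscle the capillaries run between the fibres, which are themselves a source of VEGF-A. Lymphatic vessels of muscle are few and carry Lyve1, Flt4, Pdpn and Prox1.

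Promoter sequence was found for 18 of the 32 genes in the RefSeq table of build GRCm38.p6. Flt4 and Cldn5 are shown because early mice were lower than late mice in the one and higher in the other, and each has a single start in that table. Each sequence is the stretch of 250 bases before the annotated start, written 5' to 3', and capitals mark GGAAG or its reverse complement CTTCC, the core letters bound by ETS factors such as Erg.
Flt4, chr11:49609429-49609678, plus strand: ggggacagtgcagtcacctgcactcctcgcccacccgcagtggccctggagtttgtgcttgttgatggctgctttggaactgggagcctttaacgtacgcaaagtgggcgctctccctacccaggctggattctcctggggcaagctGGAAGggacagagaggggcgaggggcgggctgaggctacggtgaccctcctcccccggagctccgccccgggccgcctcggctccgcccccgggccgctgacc
Cldn5, chr16:18776597-18776846, plus strand: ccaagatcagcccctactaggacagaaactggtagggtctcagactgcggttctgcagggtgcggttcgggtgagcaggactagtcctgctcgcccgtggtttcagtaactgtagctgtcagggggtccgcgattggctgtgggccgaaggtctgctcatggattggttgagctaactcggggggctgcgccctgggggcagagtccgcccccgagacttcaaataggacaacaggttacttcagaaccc
The Flt4 window held 1 such match and the Cldn5 window 0. Over all 32851 windows of this length in the table, 64.1% held at least 1 on either strand, and 19 of the 25 windows of the endothelial genes (76%) did. SOX letters (ACAAT or ATTGT) stood in 24% of the endothelial windows against 27.7% of all windows, and GATA letters (GATAA or TTATC) in 16% against 22.6%. Neither SOX nor GATA letters occurred in the Flt4 or Cldn5 window. These are matches of letters, not binding sites.

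The comparison of early with control muscle sets the younger induced mice against animals of their own age. Most endothelial genes had lower values in early mice, but by small amounts, and 0 of 30 passed the test (limma, adjusted p under 0.05), where 1.19% of all 9697 genes were called. At an unadjusted p under 0.05 there were 9 of 30 (30%), against 18.5% of all genes. The difference was below 0 for 26 of 30 genes (86.7%), against 54.1% of all genes. The median was -0.36 on the log2 scale, against -0.03 for all genes. With arrays weighted by their spread in the fit it was -0.12, with 22 of 30 genes below 0. Those weights were 0.376, 2.837 and 0.238 for early 1, 2 and 3, so that value rests mostly on early 2. For 9 of 30 (30%) every early array lay below every control array, against 13.9% of all genes, and for 0 did every early array lie above every control array, against 9.63% of all genes. Fewer endothelial cells and less of each transcript per cell cannot be told apart in whole muscle.

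In late against control muscle, which holds the age difference as well, the genes were split. Again 0 of 30 passed, where 0.206% of all genes were called, and 7 of 30 had an unadjusted p under 0.05, against 17.3% of all genes. The difference was below 0 for 17 of 30, against 48.8% of all genes, with a median of -0.09, against 0.01 for all genes. This median rests on single arrays: it was 0.01 without late 1, -0.21 without late 2, -0.04 without control 1 and -0.13 without control 2, and 0.02 with array weights. For 7 of 30 (23.3%) every late array lay below every control array, against 14.9% of all genes, and for 2, Vegfa and Sox17, every late array lay above, against 16% of all genes. Both comparisons share the 3 controls. Side by side, 15 genes were below 0 in both, 11 were below 0 in early and above 0 in late mice, 2 the reverse and 2 above 0 in both.

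**Figure D1:**
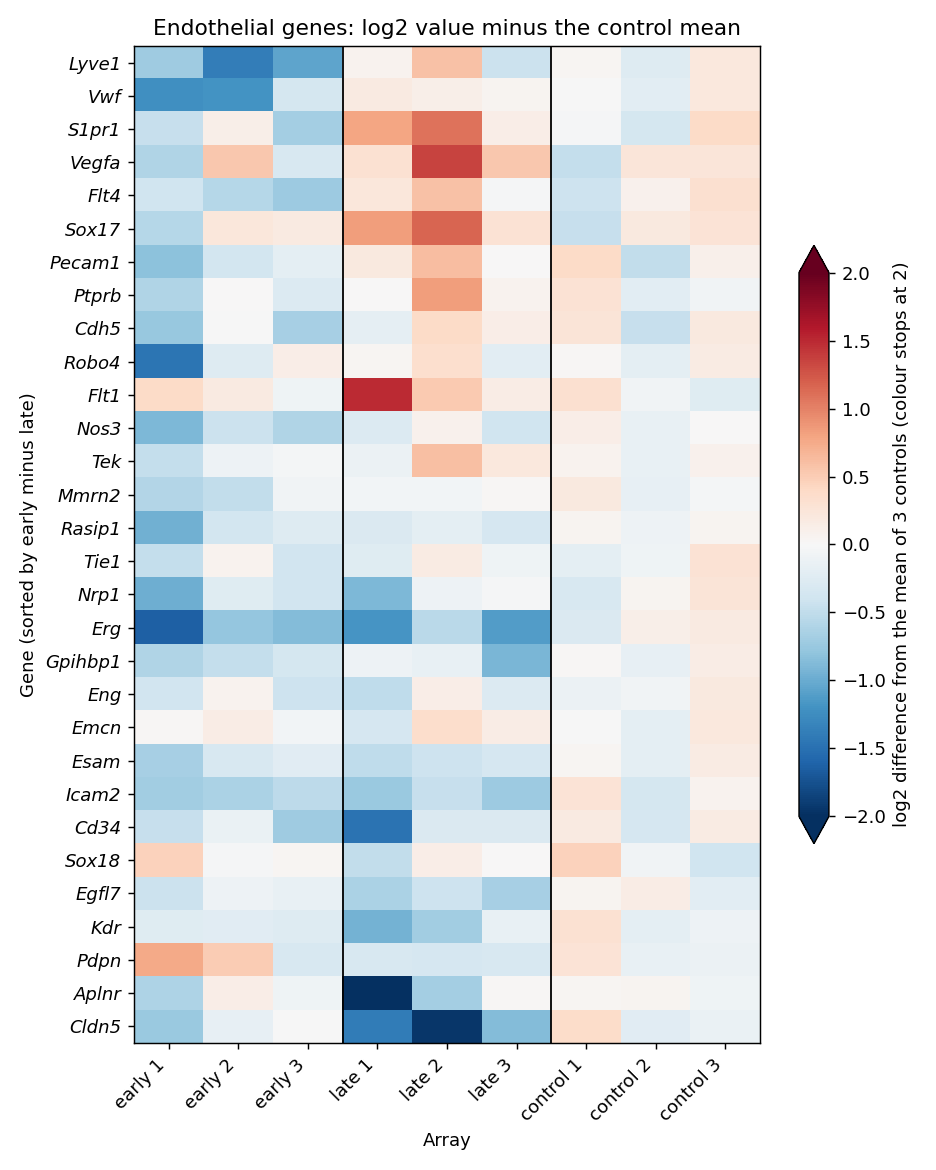
Log2 value of each of the 30 tested endothelial genes (rows, sorted by early minus late) in each of the 9 arrays (columns), minus that gene's mean over the 3 controls; blue is lower and red higher. Early arrays are mostly blue, deepest for Erg and Robo4 in early 1 and Lyve1 in early 2, while late arrays mix red (S1pr1, Sox17, Vegfa) with blue (Cldn5, Erg, Icam2), with Aplnr in late 1 at the end of the colour scale.

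The direct comparison of early with late muscle gave the only endothelial genes that passed. Lyve1, Vwf and Flt4 were lower in early mice, 3 of 30 genes (10%), where 11.5% of all genes were called and 6.23% were called lower; 0 of 30 were called higher, against 5.31%. The share called among the endothelial genes is therefore near the background. At an unadjusted p under 0.05 there were 11 of 30, against 34.2% of all genes. The difference was below 0 for 21 of 30, against 53% of all genes, with a median of -0.23, against -0.03. Without early 1 that median was -0.07, with 18 of 30 genes below 0, and without late 2 it was -0.16, with 17 of 30. For 8 (26.7%) every early array lay below every late array, against 18.3% of all genes, and for 1, Cldn5, every early array lay above, against 13.7%.

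Lyve1, the hyaluronan receptor of lymphatic endothelium that some resident macrophages also carry, had log2 values of 7.03, 6.35 and 6.67 in early mice. In late mice they were 7.80, 8.33 and 7.30, and in controls 7.78, 7.48 and 7.95. Every early array lay below every late and every control array, and the late and control ranges overlapped. Early differed from late mice by -1.13 ± 0.28 (SE), 2.18-fold lower (adjusted p = 0.0378). Against controls the early difference was -1.05 ± 0.28 (adjusted p = 0.13), and the late one 0.08 ± 0.28 (adjusted p = 0.918). A second Lyve1 probe set gave -0.13 for early minus late (adjusted p = 0.77), and with the mean of both probe sets the gene was not called (-0.63, adjusted p = 0.133).

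Vwf, von Willebrand factor, the clotting protein that endothelium stores and secretes, had log2 values of 8.08, 8.10 and 8.95 in early mice, against 9.48, 9.41 and 9.35 in late mice. Controls had 9.29, 9.09 and 9.51. All early arrays were again the lowest, with early 3 closest to the others. Early differed from late mice by -1.04 ± 0.24, 2.06-fold lower (adjusted p = 0.0327). The early difference from controls was -0.92 ± 0.24 (adjusted p = 0.121) and the late one 0.11 ± 0.24 (adjusted p = 0.843).

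Flt4, the receptor for VEGF-C and VEGF-D that is largely lymphatic in the adult, had log2 values of 6.45, 6.28 and 6.13 in early mice and 7.07, 7.44 and 6.83 in late mice. Its controls spread widely, at 6.43, 6.94 and 7.17, and control 1 lay within the early range. Early differed from late mice by -0.83 ± 0.23, 1.78-fold lower (adjusted p = 0.0491). Against controls the early difference was -0.56 ± 0.23 (adjusted p = 0.239) and the late one 0.27 ± 0.23 (adjusted p = 0.581).

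These 3 calls rest on the whole set of arrays. Leaving out any 1 of the 9 arrays ended the call of Flt4 (adjusted p = 0.0519 to 0.138). Vwf stayed called only without early 3 (adjusted p = 0.00115) and otherwise had adjusted p = 0.0555 to 0.0975. Lyve1 stayed called without early 3 or late 3 (adjusted p = 0.033 and 0.0283) and otherwise had adjusted p = 0.0623 to 0.108. Flt4 also failed once arrays were centred on their medians (adjusted p = 0.0608). When the replicate number was held as a block, Vwf passed (adjusted p = 0.0376), Lyve1 and Flt4 did not (adjusted p = 0.0555 and 0.0641), and Vegfa did (adjusted p = 0.0406). With only early and late arrays fitted 0 endothelial genes passed, and 38 genes in all did. The sign of these 3 differences was the same in every one of these fits.

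**Figure D2:**
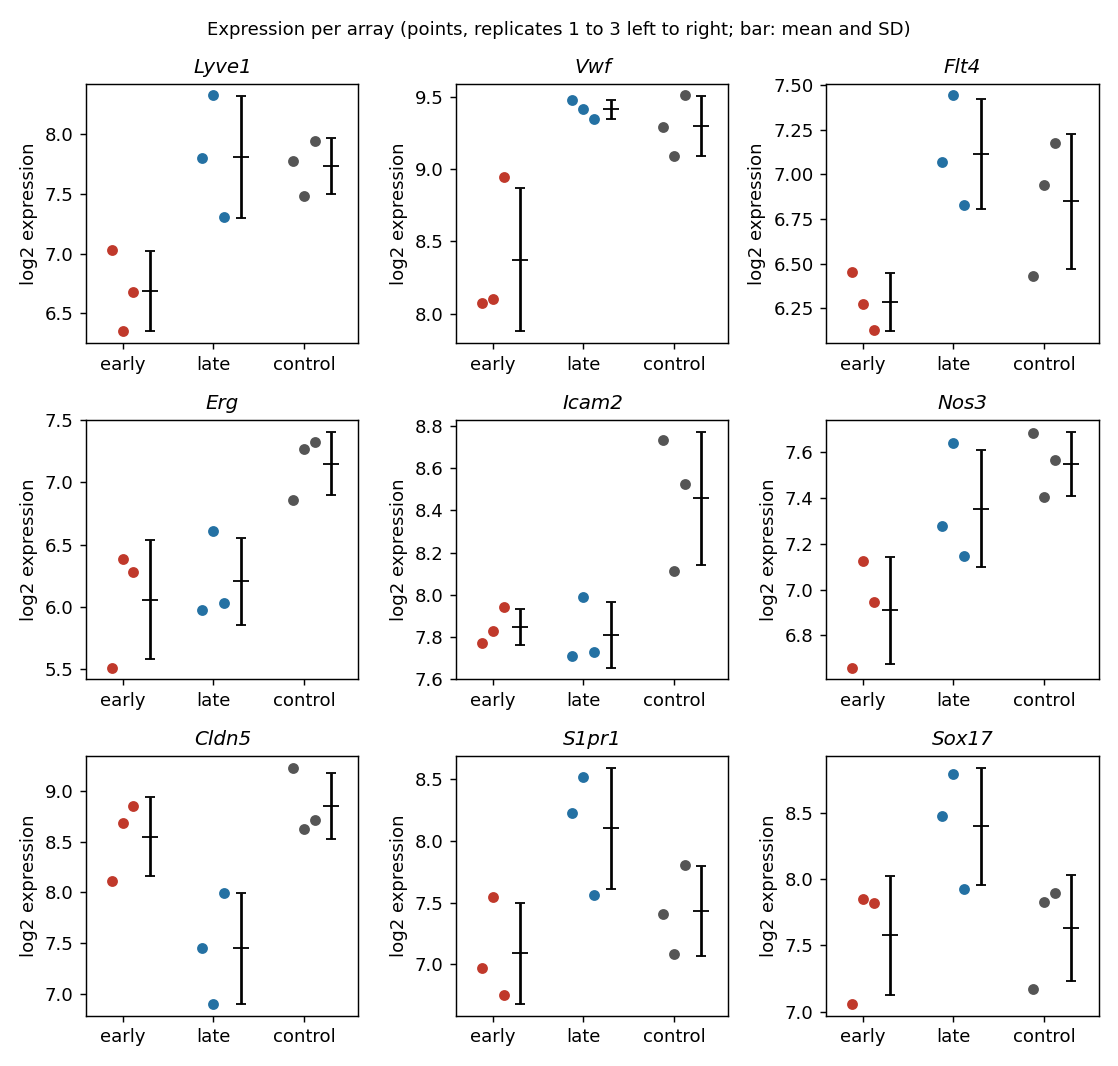
Log2 expression of 9 endothelial genes in each array (points, replicates 1 to 3 from left to right within a group), with the mean and SD of each group of 3 beside them; each panel has its own axis. For Lyve1, Vwf and Flt4 all early points lie below all late points, for Erg and Icam2 all early and late points lie below all controls, and for Cldn5 all late points lie below the rest.

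Vegfa encodes the main VEGF ligand of muscle. It is described here because the replicate block changed its call. Its log2 values were 9.06, 10.20 and 9.35 in early mice, 9.97, 11.01 and 10.20 in late mice, and 9.18, 9.91 and 9.91 in controls. Replicate 2 was the highest array in both induced groups, and every late array lay above every control. The early minus late difference was -0.86 ± 0.37 (adjusted p = 0.14) and the late minus control difference 0.73 ± 0.37 (adjusted p = 0.347). A second Vegfa probe set gave 0.10 for early minus late, of opposite sign (adjusted p = 0.689).

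Of the VEGF receptors, Kdr, the main signalling receptor for VEGF-A, had log2 values of 7.97, 7.99 and 7.96 in early mice, 7.28, 7.52 and 8.07 in late mice, and 8.51, 8.01 and 8.12 in controls. All early arrays lay just below the lowest control. The difference was -0.24 ± 0.22 in early mice (adjusted p = 0.564) and -0.59 ± 0.22 in late mice (adjusted p = 0.235). Flt1, which binds VEGF-A tightly and limits its action, differed by 0.16 ± 0.32 in early and by 0.72 ± 0.32 in late mice, with a late 1 value of 8.29 against 7.31 and 6.94 in late 2 and 3. Without late 1 the late difference of Flt1 was 0.33. On this chosen Flt1 probe set early minus late was -0.56 (limma adjusted p = 0.252). Another, with early, late and control means of 4.58, 6.36 and 4.96, gave -1.78 (limma adjusted p = 0.0425 over all probe sets). Its early values all lay below 5, and late 1, 2 and 3 stood at 7.5, 6.2 and 5.4. A further passing Flt1 probe set gave -0.77 (limma adjusted p = 0.132 over all probe sets). Nrp1, a co-receptor of VEGF and semaphorins, differed by -0.54 ± 0.29 in early and -0.35 ± 0.29 in late mice.

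The angiopoietin receptor Tek, its partner Tie1 and the phosphatase Ptprb, which restrains Tek, had early differences of -0.21, -0.26 and -0.29 and did not pass (adjusted p = 0.605 for Tek and 0.562 for Ptprb). Their late differences were 0.23, -0.06 and 0.30. A second Ptprb probe set gave -0.28 in early and -0.33 in late mice, the late difference being of opposite sign. The 95% interval of the early difference was -0.68 to 0.26 for Tek and -0.71 to 0.19 for Tie1.

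Among the other receptors S1pr1, which binds sphingosine phosphate and stabilises junctions, had log2 values of 6.97, 7.54 and 6.75 in early mice, 8.23, 8.52 and 7.56 in late mice, and 7.41, 7.08 and 7.81 in controls. All late arrays lay above all early ones, with late 3 and early 2 nearly touching. Early minus late was -1.01 ± 0.31 (adjusted p = 0.0617), and the gene passed without late 3 (-1.29, adjusted p = 0.0433). Eng, a co-receptor for TGF-beta and BMP ligands, differed by -0.24 ± 0.21 and -0.22 ± 0.21 in early and late mice. A second Eng probe set gave -0.05 in early and 0.26 in late mice, the late difference being of opposite sign. Robo4, a receptor that favours vessel stability, differed by -0.53 ± 0.36 in early mice, where early 1 stood at 5.49 against 6.69 and 7.08 in early 2 and 3.

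Aplnr, the apelin receptor, was singled out after its values were seen. In late mice it had log2 values of 7.85, 10.36 and 11.06, against 11.08, 11.09 and 10.95 in controls. Early mice had 10.42, 11.17 and 10.95. The late 1 array thus decides the late minus control difference of -1.28 ± 0.68 (adjusted p = 0.369), which was -0.33 without it. A second Aplnr probe set also had its lowest value in late 1, at 4.35 against 6.73 and 6.86 in late 2 and 3. Cd34, a sialomucin of endothelium and of other stromal and stem cells, had its lowest value in the same array (9.09, against 10.29 and 10.29 in late 2 and 3).

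Of the 8 junction and surface genes, 7 were below 0 in early and 5 in late mice against controls, where 54.1% and 48.8% of all genes were. By limma 0 passed in either comparison, where 1.19% and 0.206% of all genes were called. In each comparison 3 had an unadjusted p under 0.05, against 18.5% and 17.3% of all genes. Icam2, an adhesion molecule that endothelium carries at rest, had log2 values of 7.77, 7.83 and 7.94 in early mice and 7.71, 7.99 and 7.73 in late mice. Controls had 8.73, 8.11 and 8.53, so no induced array reached the lowest control. The difference was -0.61 ± 0.18 in early mice (adjusted p = 0.15) and -0.65 ± 0.18 in late mice (adjusted p = 0.142). Early minus late was 0.04, with a 95% interval of -0.37 to 0.44.

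Esam, an adhesion molecule of endothelial tight junctions, had log2 values of 9.43, 9.78 and 9.88 in early mice, 9.59, 9.69 and 9.76 in late mice, and 10.14, 9.90 and 10.26 in controls. The difference was -0.40 ± 0.16 in early mice (adjusted p = 0.237) and -0.42 ± 0.16 in late mice (adjusted p = 0.242), again with all induced arrays below all controls. Rasip1, a Ras-interacting protein needed for the vessel lumen, had values of 5.90, 6.49 and 6.61 in early mice, 6.57, 6.66 and 6.53 in late mice, and 6.91, 6.76 and 6.92 in controls. Its early difference was -0.53 ± 0.19 (adjusted p = 0.202) and its late difference -0.28 ± 0.19 (adjusted p = 0.48). Erg, described with the transcription factors, was the other gene with every early and every late array below every control, which makes 4 of the 30 (13.3%), against 3.26% of all genes. Both comparisons use the same 3 controls.

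Cldn5, the claudin of endothelial tight junctions, had the largest late difference of the 30 genes. Its log2 values were 8.11, 8.69 and 8.85 in early mice, 7.45, 6.90 and 7.99 in late mice, and 9.22, 8.62 and 8.71 in controls. Every late array lay below every early and every control array. Late minus control was -1.41 ± 0.31, 2.65-fold lower (adjusted p = 0.0966), and early minus late 1.10 ± 0.31 (adjusted p = 0.0518). Early minus late passed with a filter at 6, with arrays centred on their medians, with values under 5 raised to 5, without late 3 and with array weights (adjusted p = 0.0474, 0.0477, 0.0499, 0.0377 and 0.0106). Neither difference passed as first fitted.

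Pecam1, the platelet endothelial adhesion molecule, had log2 values of 7.34, 7.80 and 7.97 in early mice, 8.37, 8.78 and 8.17 in late mice, and 8.55, 7.68 and 8.28 in controls. Early and late arrays did not overlap, but the control spread covered much of both. Early minus late was -0.73 ± 0.27 (adjusted p = 0.0974). Cdh5, the cadherin of adherens junctions, had differences of -0.47 ± 0.27 in early (adjusted p = 0.363) and 0.11 ± 0.27 in late mice. Emcn, an endomucin of capillaries and veins, was among the genes nearest to 0, at 0.04 ± 0.20 in early and 0.05 ± 0.20 in late mice.

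Of the genes for secreted and matrix proteins other than Vwf, Egfl7, a secreted factor bound to the vessel matrix, had values of 9.40, 9.73 and 9.69 in early mice, 9.20, 9.42 and 9.16 in late mice, and 9.89, 9.99 and 9.62 in controls. All late arrays lay below all controls. The difference was -0.57 ± 0.16 in late mice (adjusted p = 0.146) and -0.22 ± 0.16 in early mice (adjusted p = 0.467), and its 3 other probe sets had late differences of -0.55 to -0.66. Mmrn2, a matrix protein of the endothelial surface, had differences of -0.39 ± 0.17 in early (adjusted p = 0.266) and -0.03 ± 0.17 in late mice.

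Nos3, the endothelial nitric oxide synthase, had log2 values of 6.66, 7.12 and 6.94 in early mice, 7.28, 7.64 and 7.15 in late mice, and 7.68, 7.40 and 7.57 in controls. Early arrays lay below all others, with late 3 just above early 2. The early difference from controls was -0.64 ± 0.18, 1.56-fold lower (adjusted p = 0.145), and early minus late was -0.45 ± 0.18 (adjusted p = 0.122). Gpihbp1, which carries lipoprotein lipase to the capillary lumen, had differences of -0.48 ± 0.22 in early (adjusted p = 0.293) and -0.39 ± 0.22 in late mice.

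Among transcription factors Erg, an ETS factor that maintains endothelial identity, had the largest early difference of the 30 genes. It had log2 values of 5.51, 6.38 and 6.28 in early mice, 5.98, 6.61 and 6.03 in late mice, and 6.86, 7.27 and 7.33 in controls. No early or late array reached the lowest control. The difference was -1.09 ± 0.27 in early mice, 2.13-fold lower (adjusted p = 0.115), and -0.95 ± 0.27 in late mice, 1.93-fold lower (adjusted p = 0.153). Early minus late was -0.14 ± 0.27, with a 95% interval of -0.76 to 0.47.

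Sox17, a SOX factor of arterial endothelium, had values of 7.06, 7.86 and 7.82 in early mice, 8.48, 8.80 and 7.93 in late mice, and 7.17, 7.83 and 7.90 in controls. Late arrays were the highest, late 3 by a narrow margin. Late minus control was 0.77 ± 0.31 (adjusted p = 0.265) and early minus late -0.82 ± 0.31 (adjusted p = 0.104). The chosen Sox17 probe set is of a type whose probes can match other transcripts, as is that of Egfl7. A second Sox17 probe set gave smaller differences, 0.36 for late minus control and -0.37 for early minus late. By limma over all probe sets these had adjusted p = 0.2995 and 0.141. On that probe set early 3 and late 3 both stood at 5.35. Sox18, a factor of blood and lymphatic vessel development, differed by 0.16 ± 0.26 in early and -0.12 ± 0.26 in late mice. Tal1, a factor of blood and endothelial precursors, stood between 2.54 and 2.58 in early mice, at 4.07, 3.05 and 2.21 in late mice, and between 2.55 and 2.64 in controls. Prox1, the factor that sets lymphatic identity, stood between 3.35 and 3.61 in all 9 arrays, so this defining lymphatic gene was not read above the dim range.

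Pdpn, a membrane mucin of lymphatic endothelium that stromal cells also carry, had a difference of opposite sign to Lyve1 and Flt4. Its log2 values were 9.66, 9.41 and 8.58 in early mice, 8.58, 8.57 and 8.59 in late mice, and 9.17, 8.75 and 8.78 in controls. Early 1 and 2 were high while early 3 matched the late arrays. Early minus late was 0.64 ± 0.26 (adjusted p = 0.126), and without early 3 it was 0.96 (adjusted p = 0.0052).

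**Figure D3:**
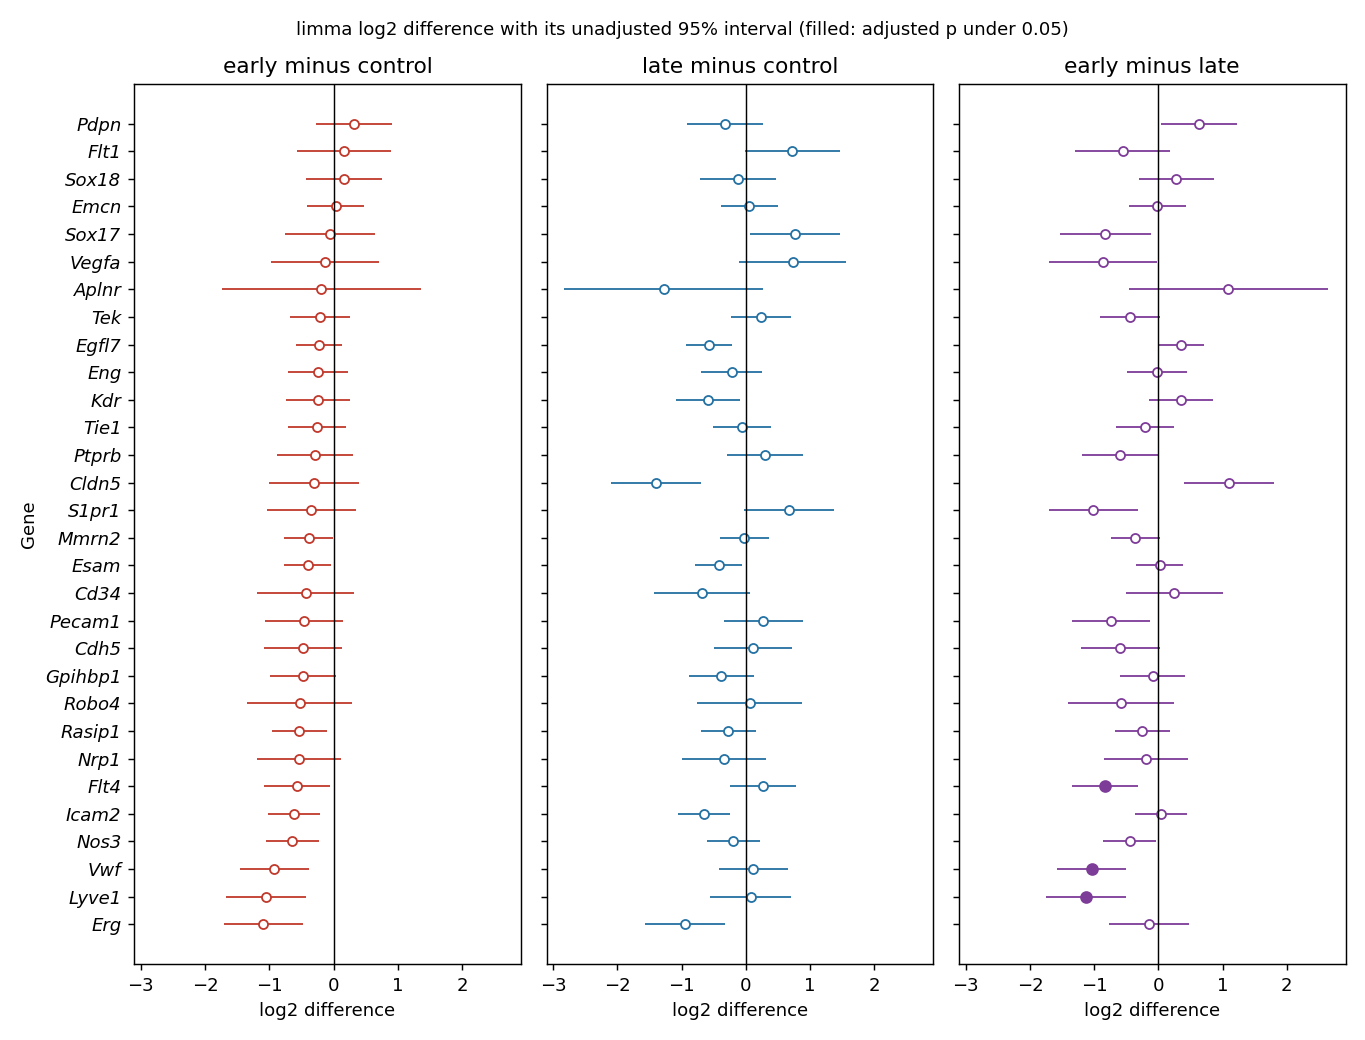
Log2 difference of the 30 tested endothelial genes in early minus control, late minus control and early minus late mice, with unadjusted 95% intervals from limma on a shared axis; filled points passed the test. Filled points stand only in the early minus late panel (Flt4, Vwf and Lyve1), early minus control lies left of 0 for 26 genes, and Cldn5 and Aplnr reach farthest left in late minus control.

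The early against control result also depended on early 3. Without that array 5 of the 30 genes passed: Vwf (-1.21, adjusted p = 0.00216), Erg (-1.20, adjusted p = 0.0311), Rasip1 (-0.67, adjusted p = 0.0429), Mmrn2 (-0.54, adjusted p = 0.0367) and, in the other direction, Pdpn (0.63, adjusted p = 0.0357). These are 16.7% of the 30, where 18.1% of all genes (1756) were called in the same fit, so the share is near the background. Without any other single array 0 of the 30 passed. As a median over the 30 genes, the difference from the control mean was -0.60, -0.15 and -0.30 in early 1, 2 and 3, and -0.26, 0.12 and -0.06 in late 1, 2 and 3. It was 0.05, -0.16 and 0.15 in controls 1, 2 and 3, so early 2 stood level with control 2.

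A longer list of 119 other vascular genes (other ligands, Notch and ephrin genes, hypoxia regulators, further endothelial genes and basement membrane) was read in the same fit, and 96 of these were tested. In early against control mice 0 passed in limma, where 1.19% of all genes were called, and 11 (11.5%) had an unadjusted p under 0.05, against 18.5% of all genes. Of the 96, 75 (78.1%) were below 0, against 54.1% of all genes, with a median of -0.23. In late against control mice 1 of 96 (1.04%, where 0.206% of all genes were called) rose: Mmrn1, a multimerin of platelets and endothelium, with log2 values of 6.31, 6.73 and 6.49 in late mice, against 5.01, 5.19 and 5.54 in controls. Its difference was 1.26 ± 0.19, at the edge of the threshold (adjusted p = 0.04998), and the call was kept in 1 of 9 fits that left out an array (adjusted p = 0.0431 to 0.252) and lost with the replicate block (adjusted p = 0.114). In that comparison 52 of 96 genes were below 0, against 48.8% of all genes.

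In early against late mice 15 of the 96 passed (15.6%, where 11.5% of all genes were called), 12 lower and 3 higher. Angpt1, the ligand that activates Tek, had log2 values of 5.52, 5.96 and 6.63 in early mice and 7.18, 8.47 and 7.97 in late mice, a difference of -1.84 ± 0.36, 3.57-fold lower (adjusted p = 0.0231). Its controls stood at 7.28, 7.18 and 7.61, above all early arrays. Bmp6, a BMP ligand (-1.46, adjusted p = 0.0108), Bmpr2, a BMP receptor (-0.51, adjusted p = 0.0328), Reln, a secreted protein made by lymphatic endothelium among other cells (-1.57, adjusted p = 0.0137), and Mmrn1 (-1.16, adjusted p = 0.0137) were lower in early mice. So were Egln1, an oxygen-sensing prolyl hydroxylase (-1.29, adjusted p = 0.0137), Ppargc1a, a co-activator of mitochondrial genes and of Vegfa (-1.54, adjusted p = 0.0199), and Palmd (-0.75, adjusted p = 0.0251). The 3 higher genes, named after their values were seen, were Plvap, of the diaphragms of fenestrae and caveolae (0.86), Hspg2, the basement membrane proteoglycan perlecan (1.27), and Egln2 (0.65). With the replicate block Hspg2 no longer passed (adjusted p = 0.0631), nor did Klf4, Lpl, She and Vcam1, 4 of the 12 lower genes (adjusted p = 0.0511 to 0.0624). Leaving out 1 array at a time kept the call of Bmp6 in 9 of 9 fits, and ended each of the other 14 calls in at least 1 fit. Of these 9 fits 1 kept the call of Bmpr2. Over the other processing alternatives the Bmpr2 difference ranged from -0.55 to -0.02 (limma, adjusted p = 0.00369 to 0.945). Of the other VEGF family ligands Vegfb, Vegfc and Vegfd had early minus late differences of 0.30, -0.43 and -0.22, none of which passed, while Pgf and the Tek ligand Angpt2 were below the filter. Nrp2, the co-receptor of Flt4, differed by -0.69 ± 0.20 (adjusted p = 0.0546).

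Markers of other cells moved with some of these results. Of 12 smooth muscle and pericyte markers 10 were tested, and in early against control mice 7 were below 0, against 54.1% of all genes. Their median was -0.31, against -0.03 for all genes. Of the 10, 0 passed in limma and 3 had an unadjusted p under 0.05, against 18.5% of all genes. Their summed linear level lay between 15490 and 20500 in early arrays, between 21270 and 25900 in late arrays and between 22770 and 25040 in controls. Most of that sum is Rgs5 and Abcc9, with mean log2 levels of 13.01 and 12.92 in controls. The same sum over the 30 endothelial genes was 12210 to 16350 in early, 12840 to 18780 in late and 16790 to 18940 in control arrays. Myh11, the smooth muscle myosin, was lower in early than in late mice (-1.28, limma adjusted p = 0.00578), the only 1 of the 10 that passed there. In that comparison 7 of the 10 were below 0, against 53% of all genes. Cspg4 (0.80), Pdgfrb (0.29) and Kcnj8 (0.03) were above 0.

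Macrophage markers, 6 of 8 tested, summed to 2407 to 7791 in early, 1859 to 3432 in late and 2714 to 3559 in control arrays, highest in early 1 and 2. Cd68, a lysosomal glycoprotein of macrophages, had log2 values of 12.06, 11.17 and 6.23 in early mice, against 7.90, 6.74 and 7.15 in controls, a difference of 2.55 ± 1.25 (adjusted p = 0.305). For Cd14, a co-receptor for bacterial lipopolysaccharide, the difference was 1.06, with the same 2 early arrays high, and for Csf1r, Adgre1, Cd163 and Mrc1 it lay between -0.23 and 0.15. Of the 6, 0 passed in limma and 0 had an unadjusted p under 0.05. Fcgr1 and Itgam were below the filter. Adipocyte markers, 4 of 7 tested, summed to 18680 to 28510 in early, 32860 to 42920 in late and 34040 to 38170 in control arrays. Most of this sum is Car3, with a mean log2 level of 14.81 in controls, against 12.43 for Adipoq, 10.33 for Retn and 7.83 for Cidec. Schwann markers, 3 of 6 tested, summed to 1066 to 1285 in early, 1705 to 2403 in late and 1777 to 2925 in control arrays. Nearly all of this sum is Mbp, myelin basic protein. Its mean log2 level in controls was 11.04, against 5.84 for S100b and 5.45 for Sox10. Mbp was lower in early than in late mice (-0.80, limma adjusted p = 0.0498). Fibroblast markers, 7 of 7 tested, summed to 60140 to 80490 in early, 43420 to 61900 in late and 68300 to 84290 in control arrays, lowest in late 1. The 6 muscle fibre markers had medians between -0.19 and 0.10 from the control mean in all 9 arrays. Of the 4 satellite cell and myoblast markers, all tested, only Myog passed. It was lower in late than in control mice (-2.86, limma adjusted p = 0.0359). In early mice it was higher than in late mice (2.41, limma adjusted p = 0.0131). In those comparisons 0.206% and 11.5% of all genes were called. Of 6 leukocyte and platelet markers 2 were tested, of 4 erythroid markers 1, and 0 of these passed. The part of these cell types in the endothelial values was not tested.

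**Figure D4:**
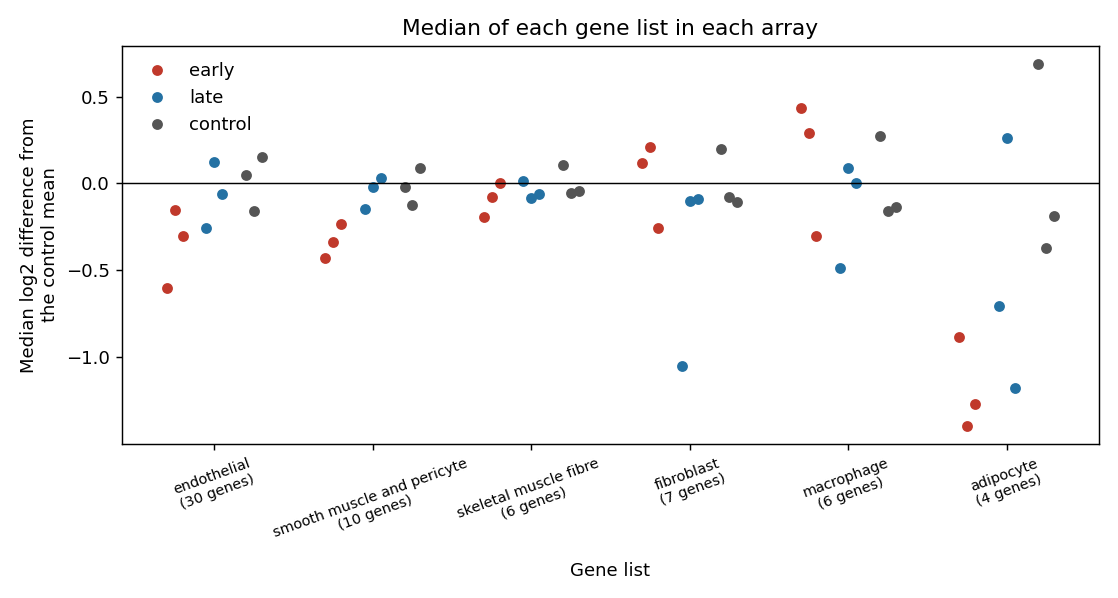
Median log2 difference from the control mean (vertical axis) of the tested genes of 6 lists (horizontal axis, with the number of genes) in each early, late and control array (points). Smooth muscle and pericyte medians are lower in all 3 early arrays than in any other array, endothelial medians are lowest in early 1 and early 3, muscle fibre medians stay near 0, and the fibroblast median is low in late 1 (-1.05).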

How the data were processed

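The deposited table holds GCRMA log2 values of 45101 probe sets on 9 Affymetrix arrays, made by the authors with GCRMA, per the submitters' processing notes, which name no version. GCRMA narrows the spread of dim probe sets and aligns the arrays, which hides any change that all genes share. Precision is limited by 3 arrays per group. By the platform's annotation 34945 probe sets name 1 gene. Those above a log2 value of 5 in at least 3 arrays were kept (16048), then the probe set with the highest mean per gene (9697 genes). Of the 30 endothelial genes tested 10 had several passing probe sets.

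A model of 3 group means was fitted to all 9 arrays with limma 3.58.1 (lmFit, eBayes) in R 4.3.3, with 6 residual and 2.84 prior degrees of freedom. P values were adjusted by Benjamini-Hochberg over all genes tested, and under 0.05 was called. An SE is the moderated one of that fit. The fit was tested on simulated data. The endothelial genes and other lists were chosen with earlier results of these data known, so no list test was used. Array values are given for the genes that passed and the 12 further ones with the smallest p. Array values of Vegfa, Flt1, Aplnr, Cd34 and Robo4 were added after they were seen. Of the other vascular genes, those that passed are named, up to 8 a comparison.

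The reported fit did not pair arrays by replicate number. A block by replicate number was fitted only as an alternative. Deviations from the group means were correlated between arrays of the same number at 0.168, 0.201 and 0.16 for early with late. For early with control these correlations were 0.35, 0.11 and -0.0391, and for late with control 0.0847, -0.165 and -0.11. No label says what a number shares. Alternatives are given at the end.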

Additional observations from a re-analysis of the deposited data

Results flagged for a closer look

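Early and late induction differed by the direct test for 3 endothelial genes, by log2 differences of -0.83 for Flt4, -1.04 for Vwf and -1.13 for Lyve1 (early minus late, limma adjusted p = 0.0491, 0.0327 and 0.0378). These are 10% of the 30 genes, where 11.5% of all genes were called. Leaving out any 1 array ended the call of Flt4, and most such fits ended those of Vwf and Lyve1. Vwf also had every early array below and every late array above the control mean. Pecam1 had the same pattern, with late 3 above the control mean by only 0.0014, and its difference of -0.73 did not pass (adjusted p = 0.0974).

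Among the other vascular genes the same test was passed by Bmp6 (-1.46), Mmrn1 (-1.16), Egln1 (-1.29), Reln (-1.57), Ppargc1a (-1.54), Angpt1 (-1.84), Palmd (-0.75) and Bmpr2 (-0.51), all lower in early mice. It was also passed by She (-0.89), Klf4 (-1.63), Vcam1 (-0.97) and Lpl (-0.64), lower in early mice, and by Egln2 (0.65), Plvap (0.86) and Hspg2 (1.27), higher in early mice. The Bmpr2 difference was as small as -0.02 under another processing setting. Early and late mice differed in age at induction and at death, which cannot be told apart here.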

How the results depend on the processing

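The number of endothelial genes called moved with the processing, while no endothelial difference that passed in any of these fits had the opposite sign as reported. In early against late mice the count of 3 became 0 with no filter and with only those 2 groups fitted. With array weights it was 7 of 30, where 3534 of 9697 genes were called. On leaving out 1 array it was 0 to 4, with 4 (13.3%) without early 3, where 30.5% of all genes were called. With a replicate block it was 2, where 1114 of 9697 genes were called. In early against control mice the count of 0 became 9 of 30 with array weights, where 3335 of 9697 genes were called. It was 0 to 5 on leaving out 1 array, with 5 (16.7%) without early 3, where 18.1% of all genes were called. In late against control mice it became 3 of 30 with array weights, where 1037 of 9697 genes were called. The median endothelial difference in early against control mice was -0.12 with array weights and -0.48 to -0.26 on leaving out 1 array.

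Over all genes, early against control gave 115 calls as reported, 56 with no filter, 61 with 2 groups, 3335 with array weights, 62 with a replicate block and 6 to 1756 on leaving out 1 array. Late against control gave 20, 12 without probe sets of shared or cross-matching probes, 12 with 2 groups, 1037 with array weights, 5 with a replicate block and 5 to 59 on leaving out 1 array. Early against late gave 1119, 584 with no filter, 38 with 2 groups, 3534 with array weights and 143 to 2959 on leaving out 1 array. With arrays centred on their medians 631 were higher and 489 lower in early than in late mice, against 515 and 604 as reported; in late against control mice 8 and 18, against 9 and 11. Array weights stopped before their tolerance was reached. The replicate block changed no other endothelial call than those of Lyve1, Flt4 and Vegfa, and among the vascular genes called it ended those given with Mmrn1 and Hspg2. The causes were not tested.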
